A study of Mus musculus with 6 samples.

Results

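The 49 genes described here are those of the deposited table of 11489 genes whose symbol begins with Psma, Psmb, Psmc, Psmd, Psme, Psmf or Psmg followed by a number. Of these, 48 encode proteins of the proteasome, its regulators or its assembly chaperones. The remaining symbol that matches, Psmc3ip, encodes a meiotic recombination protein and is no proteasome gene. The RNA came from mouse bone marrow cells that carry F4/80, the product of Adgre1 and a marker of macrophages, which were collected by flow cytometry. The labels call them erythroblastic island macrophages. The groups are F4/80+Epor-eGFP+ (3 libraries), cells with fluorescence from an eGFP reporter of the erythropoietin receptor gene Epor, and F4/80+Epor-eGFP- (3 libraries), cells without it. Strain, age, treatment and the number of animals are not in the labels used here, so the spread behind each p-value is that between libraries, which may be technical.

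The proteasome is the protease complex that degrades proteins tagged with ubiquitin. Its core is a barrel of alpha rings around beta rings, and the beta rings carry the active sites on the subunits beta1, beta2 and beta5. In immune cells and after interferon gamma, the subunits beta1i, beta2i and beta5i are built into new cores in place of their constitutive counterparts, which makes the immunoproteasome and shifts the peptides made for MHC class I. The core is opened by a regulatory particle with a base of ATPases and a lid that removes ubiquitin, or by other caps such as PA28. Maturing erythroid cells degrade much of their protein by this route, and macrophages use it in inflammatory signalling and in antigen presentation.

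Values are FPKM, fragments scaled to gene length and library size, which allow levels of different genes to be compared. Where 3 values are given for a group, they are those of libraries 0, 1 and 2 in that order. Total FPKM ran from 467176 to 519650 per library, and the read depth is unknown. Epor, the reporter gene, was at 0.375, 0.414 and 0.217 FPKM for Epor-eGFP- against 6.67, 3.43 and 7.78 for Epor-eGFP+. The macrophage markers Csf1r and Cd68 were present in both groups, and Mertk was at 0.567 to 1.24 FPKM in Epor-eGFP- libraries against 18.3 to 57.9 in Epor-eGFP+ libraries.

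Most of the genes that changed were higher in Epor-eGFP+ cells, and the immune subunits were on the lower side. Of the 49 genes, 48 had a mean of at least 1 FPKM and were tested with limma on log2(FPKM + 1), with p-values adjusted over all 10964 tested genes. At an adjusted p under 0.05, 23 of the 48 rose, 4 fell and 21 had no call, so 56.2% were called, against 49.0% of all tested genes. Of all tested genes, 22.7% rose and 26.3% fell, so the share of the 48 genes that rose (47.9%) lay above that background and the share that fell (8.33%) below it. Without Psmc3ip, which rose and is no proteasome gene, 22 of 47 rose (46.8%) and 4 fell (8.51%). The median log2 fold change was 0.21 over the 48 genes and −0.01 over all tested genes. The changes were small: the 23 genes that rose did so by 14.6% to 62.7% of their Epor-eGFP- mean, with a median of 30.3%. The libraries of a group lay close together in these genes, with a median coefficient of variation of 5.03% over the 48 genes in Epor-eGFP+ and 5.72% in Epor-eGFP-, against 9.44% and 9.09% over all tested genes. The genes compared were not matched for level. The groups did not overlap in 27 genes that were higher and 9 that were lower in Epor-eGFP+, where 28.4% and 31.9% of all tested genes did the same (75.0% of the 48 genes in either direction, against 60.4%). Among called genes of the 48, 85.2% were higher, against 46.3% of the calls over all tested genes. When each library was rescaled to a common total, the share was 96.4% (27 higher and 1 lower). That scaling also raised the share over all tested genes, as given in the last paragraph. Of the 23 rises, 14 passed in all 15 alternatives tried, and leaving out Epor-eGFP- library 0 or Epor-eGFP+ library 0 left 14 genes higher in each case. In bulk samples such as these, fewer cells of a type and less RNA per cell cannot be told apart.

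**Figure D1:**
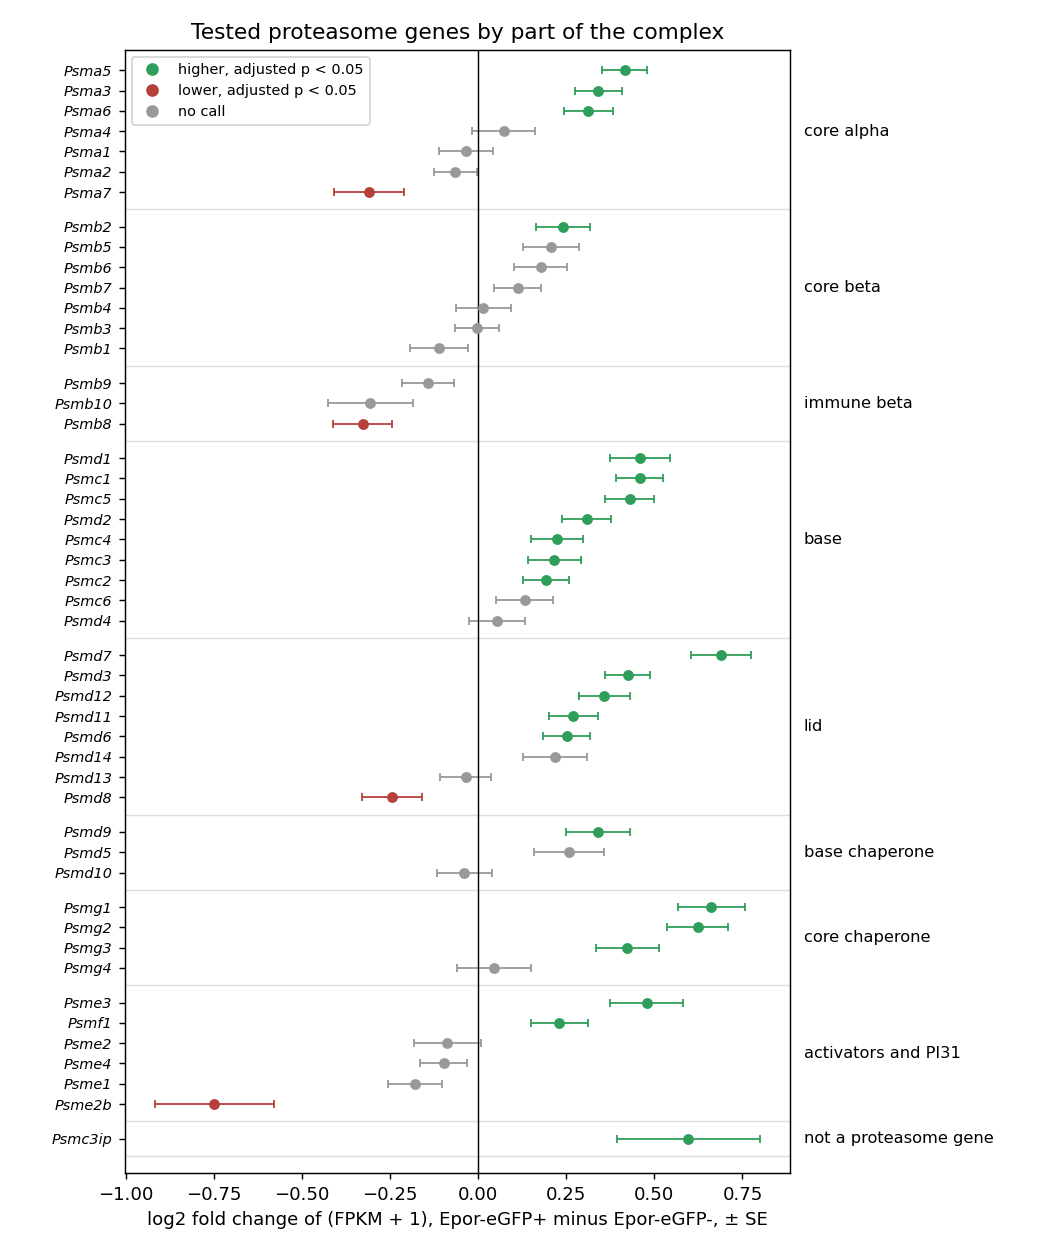
Log2 fold change of the 48 tested genes (x axis, log2 of FPKM + 1, Epor-eGFP+ minus Epor-eGFP-, with SE from the limma fit) by part of the complex (y axis). Green points passed the test upward (23 genes), red points downward (4 genes) and grey points did not pass (21 genes), and all 9 base genes lie to the right of 0 while all 3 immune beta genes lie to the left.

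The genes of the catalytic subunits differed between the groups in opposite directions. In FPKM as deposited, the immune genes were lower in every Epor-eGFP+ library than in any Epor-eGFP- library. The constitutive genes of the same positions were higher in every Epor-eGFP+ library. Psmb8, which encodes beta5i (LMP7), was at 154, 152 and 172 FPKM for Epor-eGFP- against 129, 118 and 134 FPKM for Epor-eGFP+. It fell by 20.4% (log2 fold change −0.33, SE 0.08, limma adjusted p = 0.0175), the single immune subunit to pass the test. The call was lost on rescaling to a common total (−0.23, adjusted p = 0.0581), on quantile normalization (−0.20, adjusted p = 0.0570) and without Epor-eGFP+ library 0 (0.0553) or library 1 (0.0506). Psmb10, which encodes beta2i (MECL-1), was at 70.1, 73.3 and 93.7 FPKM for Epor-eGFP- against 62.1, 59.9 and 67.8 for Epor-eGFP+. Its log2 fold change was −0.31 (SE 0.12, adjusted p = 0.0730), and −0.21 on rescaling to a common total (adjusted p = 0.179). With the library number as a block, which takes out what libraries of the same number share, the adjusted p was 0.0200. Psmb9, which encodes beta1i (LMP2), was at 84.6, 88.7 and 95.3 FPKM against 80.5, 78.0 and 84.3 and did not pass (log2 fold change −0.14, SE 0.07, adjusted p = 0.148). The gap between the groups was narrow for Psmb9, where the highest Epor-eGFP+ library lay just under the lowest Epor-eGFP- library. Rescaled to a common total, the log2 fold change of Psmb9 was −0.04 (adjusted p = 0.674).

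Psmb5, the constitutive beta5 gene with chymotrypsin-like activity, was at 85.4, 88.0 and 93.8 FPKM for Epor-eGFP- against 110, 103 and 96.0 for Epor-eGFP+ (log2 fold change 0.21, SE 0.08, adjusted p = 0.0649). Psmb6, the beta1 gene with caspase-like activity, was at 70.4 ± 5.26 FPKM in Epor-eGFP- and 79.6 ± 1.49 in Epor-eGFP+ (SD, n = 3 per group; 0.18, SE 0.08, adjusted p = 0.0889). Psmb7, the beta2 gene with trypsin-like activity, was at 85.7 ± 4.08 and 92.6 ± 2.02 FPKM (0.11, SE 0.07, adjusted p = 0.204). None of these 3 passed the test singly. Rescaled to a common total, Psmb5 and Psmb6 passed.

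**Figure D2:**
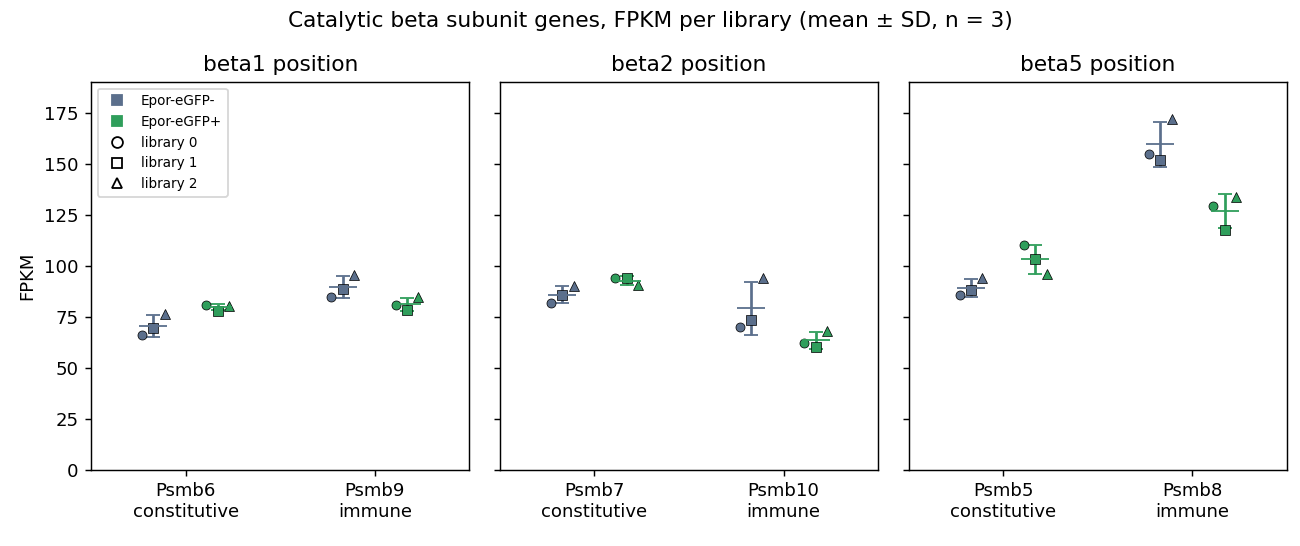
FPKM (y axis, from 0) of the constitutive and immune genes of each catalytic position (x axis), with points for single libraries, marked by library number, and bars for the mean ± SD of 3 libraries. Psmb8 falls from a mean of 159 to 127 FPKM while Psmb5 goes from 89.0 to 103, and in each panel the constitutive gene lies higher and the immune gene lower in Epor-eGFP+.

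The ratio of an immune gene to its constitutive counterpart within a library does not change when a library is multiplied by a factor. Psmb8 over Psmb5 was 1.81, 1.73 and 1.83 for Epor-eGFP- against 1.18, 1.14 and 1.39 for Epor-eGFP+. The difference in log2 ratio was −0.54 (SE 0.09), which is −31.2% on the linear scale. Psmb9 over Psmb6 was 1.29, 1.28 and 1.25 against 0.998, 1.002 and 1.05 (difference in log2 ratio −0.32, SE 0.03). Transcripts for beta1i and beta1 thus stood at near parity in Epor-eGFP+ libraries, while beta1i transcripts were the more abundant in Epor-eGFP- libraries. Psmb10 over Psmb7 was 0.857, 0.858 and 1.04 against 0.663, 0.638 and 0.751 (difference −0.42, SE 0.12). In each of the 3 pairs the groups did not overlap, and every library number gave a lower ratio in Epor-eGFP+ than in Epor-eGFP-. By an exact two-sided permutation test each pair had p = 0.1, the smallest that 3 against 3 libraries allow, and p = 0.1 after Benjamini-Hochberg adjustment over the 3 pairs. Summed over the 6 catalytic genes, the immune genes held 57.0%, 56.4% and 58.1% of FPKM for Epor-eGFP- against 48.9%, 48.2% and 51.7% for Epor-eGFP+. The immune transcripts thus remained close to as abundant as the constitutive ones in Epor-eGFP+ cells.

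**Figure D3:**
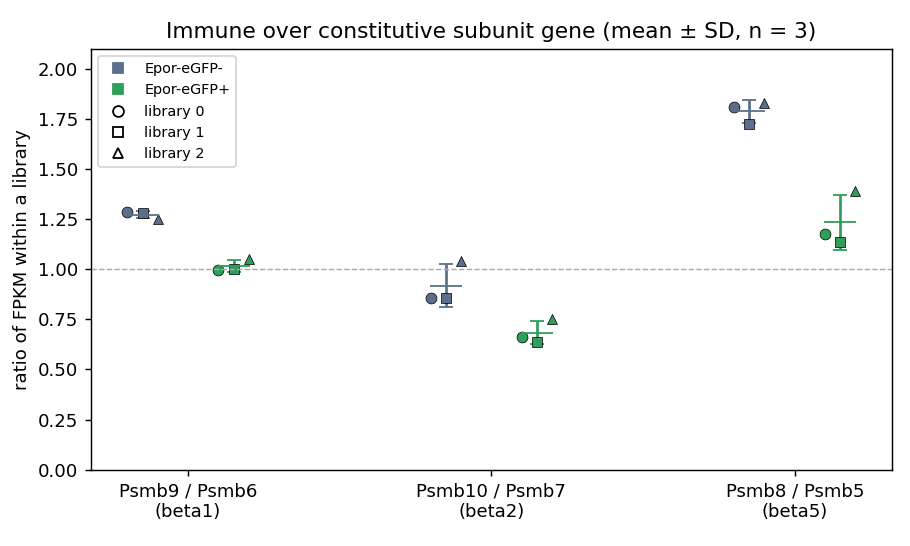
Ratio of immune to constitutive FPKM within each library (y axis, from 0) at the 3 catalytic positions (x axis), with points for single libraries and bars for the mean ± SD of 3 libraries. The dashed line marks equal levels, and at every position the 3 Epor-eGFP+ points lie below the 3 Epor-eGFP- points.

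The immune genes lie in different places. Psmb9 spans 34181987 to 34187764 on the minus strand of chromosome 17 and Psmb8 spans 34197721 to 34201454 on the plus strand (GRCm38), with Tap1 between them and Tap2 beyond Psmb8, in the MHC class II region. Psmb10 spans 105935735 to 105938444 on chromosome 8. The annotated exons of Psmb9 overlap those of Tap1 on the other strand over 212 bases (5.79% of its exon length), and those of Psmb8 overlap an antisense RNA over 498 bases (14.7%). The kit does not mark strand, so reads there cannot be told apart.

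The bases upstream of the start sites of the catalytic genes are shown because the immune and constitutive genes differed in opposite directions. Sequences are from the RefSeq promoter table (GRCm38.p6), which matched 41 of the 49 genes and 5 of the 6 catalytic genes. The windows of 250 bases before the start were searched on both strands for the core of the interferon-stimulated response element (GAAA, any 2 bases, GAAA), TTCNNNGAA (the gamma-activated site), TGACNNNGC (the core of the antioxidant response element, which Nrf1 and Nrf2 bind) and CCAAT. Each stretch is printed 5′ to 3′ on the strand of the gene, with matches in capitals and bases within annotated exons left out. For Psmb8 and Psmb9, whose windows lie within annotated exons, 29 bases around the match are given.
Psmb5 (chr14:54618023-54618245, minus strand): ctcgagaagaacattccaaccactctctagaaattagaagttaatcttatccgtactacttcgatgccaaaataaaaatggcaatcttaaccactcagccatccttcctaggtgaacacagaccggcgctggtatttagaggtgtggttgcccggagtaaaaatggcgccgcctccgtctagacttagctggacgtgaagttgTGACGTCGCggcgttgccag
Psmb6 (chr11:70525107-70525356, plus strand): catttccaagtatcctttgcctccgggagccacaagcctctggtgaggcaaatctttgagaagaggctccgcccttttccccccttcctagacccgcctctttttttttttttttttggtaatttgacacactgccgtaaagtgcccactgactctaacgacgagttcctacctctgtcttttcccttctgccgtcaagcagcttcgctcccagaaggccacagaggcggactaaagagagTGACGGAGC
Psmb10 (chr8:105938445-105938642, minus strand): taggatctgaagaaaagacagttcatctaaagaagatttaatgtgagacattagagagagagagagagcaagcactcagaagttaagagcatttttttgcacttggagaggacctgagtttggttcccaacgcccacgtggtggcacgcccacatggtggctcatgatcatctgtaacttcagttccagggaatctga
Psmb8 (chr17:34198088-34198116, plus strand): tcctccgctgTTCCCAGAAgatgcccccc
Psmb9 (chr17:34187331-34187359, minus strand): ctgcaccgcgcgcagccgctgATTGGaaa
Psmb5 and Psmb6 each held a match to TGACNNNGC, 47 and 9 bases before the start. In the same window, 11.5% of 27025 genes in the promoter table hold one, and 14.2% of the 8478 tested genes in it. None of the 3 immune genes held one. Psmb8 held a match to TTCNNNGAA, 97 bases before the start, present in 8.13% of genes, and Psmb9 held CCAAT read on the other strand, present in 37.5%. Psmb10 held none of the 4 motifs, and none of these 5 genes held the core of the interferon-stimulated response element (3.46% of genes). Among the 41 matched genes, 3 held that core, 2 TTCNNNGAA, 5 TGACNNNGC and 14 CCAAT. No match overlapped another in the stretches printed. These are matches of letters and say nothing of binding.

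The other core subunits differed unevenly between the groups, although they are built into every core in equal numbers. Of the 7 tested alpha genes, which form the outer rings and the gate, 3 rose, 1 fell and 3 had no call. Among all tested genes 22.7% rose and 26.3% fell. Psma5 (alpha5) was at 54.1, 57.8 and 57.2 FPKM for Epor-eGFP- against 75.6, 73.8 and 77.0 for Epor-eGFP+, a rise of 33.9% (log2 fold change 0.42, SE 0.06, adjusted p = 0.00250). Psma3 (alpha7) rose from 51.3 ± 2.30 to 65.2 ± 1.81 FPKM (0.34, SE 0.07, adjusted p = 0.00608) and Psma6 (alpha1) from 106 ± 2.75 to 131 ± 6.17 (0.31, SE 0.07, adjusted p = 0.00934). Psma7 (alpha4), the most abundant alpha gene, went the other way, at 156, 160 and 196 FPKM for Epor-eGFP- against 137, 138 and 136 for Epor-eGFP+ (−0.31, SE 0.10, adjusted p = 0.0382). Epor-eGFP- library 2 was the highest of all, and without it the log2 fold change was −0.21 and the adjusted p 0.0527. The fall of Psma7 passed in no leave-one-out fit except the one without Epor-eGFP- library 0, nor on rescaling to the total (adjusted p = 0.142) or the upper quartile (0.0650). Psma1, Psma2 and Psma4 had log2 fold changes of −0.03, −0.06 and 0.07 and no call, and the signs of Psma1 and Psma2 turned on rescaling to a common total. Psma8, the alpha4 variant of testis, was below the filter at 0.595 ± 0.164 and 1.05 ± 0.136 FPKM and was not tested.

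Of the 7 constitutive beta genes, Psmb2 (beta4, without an active site) rose from 88.6 ± 6.08 to 105 ± 3.47 FPKM (0.24, SE 0.08, adjusted p = 0.0357), and the other 6 had no call. Over all tested genes 49.0% were called. Of the 6 leave-one-out fits only the one without Epor-eGFP- library 2 kept the call of Psmb2, and without Epor-eGFP+ library 0 the adjusted p was 0.129. Psmb3 (beta3) and Psmb4 (beta7) had log2 fold changes of −0.003 and 0.015 at 126 and 155 FPKM in Epor-eGFP+. Psmb1 (beta6) had one of −0.11 (SE 0.08).

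The regulatory particle, with 17 of the 48 tested genes, held 12 of the 23 rises. All 9 base genes of the symbol rule had log2 fold changes above 0 and 7 of them rose, as did 5 of its 8 lid genes. Over all 10964 tested genes, 5365 had log2 fold changes above 0 and 22.7% rose. Psmd1, the scaffold subunit Rpn2 of the base, was at 34.1, 38.6 and 31.9 FPKM for Epor-eGFP- against 47.6, 50.2 and 46.7 for Epor-eGFP+, a rise of 38.2% (0.46, SE 0.09, adjusted p = 0.00527). The ATPase genes Psmc1 (Rpt2) and Psmc5 (Rpt6) rose by log2 fold changes of 0.46 (SE 0.07, adjusted p = 0.00208) and 0.43 (SE 0.07, adjusted p = 0.00300), each with no overlap between groups. Psmd2 (Rpn1), Psmc2 (Rpt1), Psmc3 (Rpt5) and Psmc4 (Rpt3) rose by 0.31, 0.19, 0.22 and 0.22, the ATPase genes with adjusted p from 0.0414 to 0.0481, close to the threshold. Leaving out a library ended the call of Psmc2 in every case, that of Psmc3 in all but the fit without Epor-eGFP- library 1, and that of Psmc4 in all but the fit without Epor-eGFP+ library 2. Psmc6 (Rpt4) and the ubiquitin receptor gene Psmd4 (Rpn10) had values of 0.13 and 0.05 and no call.

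In the lid, Psmd7 (Rpn8, the partner of the deubiquitinase Rpn11) showed the largest rise of the 48 tested genes. It was at 36.5, 41.7 and 35.9 FPKM for Epor-eGFP- against 62.9, 64.6 and 58.0 for Epor-eGFP+, a rise of 62.7% (0.69, SE 0.08, adjusted p = 0.00124). The lowest Epor-eGFP+ library was well above the highest Epor-eGFP- library, and the adjusted p ran from 0.00116 to 0.00895 over 15 alternatives. Psmd3 (Rpn3) rose from 55.6 ± 1.46 to 75.0 ± 2.48 FPKM (0.42, SE 0.06, adjusted p = 0.00235) and Psmd12 (Rpn5) from 25.6 ± 0.892 to 33.1 ± 2.02 (0.36, SE 0.07, adjusted p = 0.00705). Psmd6 (Rpn7) and Psmd11 (Rpn6) rose by 0.25 and 0.27, calls that did not pass without Epor-eGFP- library 0 or without Epor-eGFP+ library 0, nor, for Psmd6, without Epor-eGFP- library 2 or Epor-eGFP+ library 1. Psmd13 (Rpn9) had no call (−0.04). Psmd14, which encodes Rpn11 itself, was at 49.4 ± 4.36 and 57.6 ± 4.03 FPKM and had no call (0.22, adjusted p = 0.0825, and 0.0181 with the library number as a block). Psmd8 (Rpn12) fell, from 88.1, 88.6 and 105 FPKM for Epor-eGFP- to 79.7, 77.5 and 79.0 for Epor-eGFP+ (−0.25, SE 0.09, adjusted p = 0.0491). That call lay at the threshold and was lost in each of the 6 leave-one-out fits, and without Epor-eGFP- library 2 the log2 fold change was −0.16 (adjusted p = 0.0953).

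The assembly chaperones of the core held some of the largest rises. These proteins (PAC1 to PAC4) guide the alpha ring and are not part of the finished core. Psmg1 (PAC1) was at 15.4, 16.3 and 15.2 FPKM for Epor-eGFP- against 25.3, 28.5 and 22.6 for Epor-eGFP+, a rise of 62.5% (0.66, SE 0.10, adjusted p = 0.00207). Psmg2 (PAC2), which forms a dimer with PAC1, rose from 12.5 ± 0.378 to 19.8 ± 1.87 FPKM, or by 58.7% (0.62, SE 0.09, adjusted p = 0.00177). Psmg3 (PAC3) rose by 36.6% (0.42, SE 0.09, adjusted p = 0.00801), while Psmg4 (PAC4), its partner, was at 26.5 ± 3.18 and 27.4 ± 2.30 FPKM with no call (0.05, SE 0.11). Of the 3 chaperones of the base, Psmd9 (p27) rose from 8.40 ± 0.231 to 10.9 ± 1.18 FPKM (0.34, SE 0.09, adjusted p = 0.0196). An antisense RNA overlaps 25.5% of its exon length, and 4 of the 6 leave-one-out fits lost the call. Psmd5 had no call (0.26, adjusted p = 0.0654, and 0.0127 with the library number as a block), nor had Psmd10, which encodes gankyrin (−0.04).

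The caps of the core that compete with the regulatory particle differed in both directions. Psme1, the PA28 alpha gene induced by interferon gamma and the most abundant of the 49 genes, was at 195, 190 and 209 FPKM for Epor-eGFP- against 177, 165 and 183 for Epor-eGFP+. The groups did not overlap, yet the gene did not pass (−0.18, SE 0.08, adjusted p = 0.0890), and with the library number as a block the adjusted p was 0.0408. Its sign turned under quantile normalization (0.03). Psme2, the PA28 beta gene, was at 137 ± 13.6 and 129 ± 8.72 FPKM (−0.09, SE 0.10, adjusted p = 0.476). Psme2b, a near copy of Psme2 on chromosome 11, fell from 8.44, 8.94 and 12.9 FPKM to 5.07, 5.02 and 6.52 (−0.75, SE 0.17, adjusted p = 0.0106). The reads of Psme2 and Psme2b may have been shared between them by estimation, so the value of each is uncertain. Psme3, which encodes PA28 gamma of the nucleus, rose from 45.1, 52.8 and 43.5 FPKM to 66.4, 71.9 and 59.6 (0.48, SE 0.10, adjusted p = 0.00950). Psmf1, which encodes the binding protein PI31, rose from 8.69 ± 0.193 to 10.4 ± 0.852 FPKM (0.23, SE 0.08, adjusted p = 0.0491), a call that was lost in each leave-one-out fit and with the library number as a block (adjusted p = 0.0525). Psme4 (PA200) had no call (−0.10, SE 0.07), though its groups did not overlap. Psmc3ip, which only shares the symbol, was at 5.21, 8.03 and 4.41 FPKM against 9.50, 10.6 and 7.65. It rose (0.60, SE 0.20, adjusted p = 0.0461), but the groups overlapped. The call was lost without Epor-eGFP- library 0 (adjusted p = 0.132) or library 2 (0.127). It was also lost without Epor-eGFP+ library 0 (0.121) or library 1 (0.121). Exons of Mlx on the other strand overlap 21.2% of its exon length.

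Summed by part over the genes of the symbol rule, transcripts of the base were at 508 ± 15.2 FPKM in Epor-eGFP- and 613 ± 13.2 in Epor-eGFP+, 20.7% more. Those of the lid were at 403 ± 11.1 and 459.8 ± 16.1. The lid sum leaves out Shfm1, a lid subunit gene outside the symbol rule, at 372 ± 30.7 and 291 ± 12.4 FPKM. That fall is larger than the rise of the lid sum, so the rise does not hold for the lid with Shfm1 included. The core alpha sum was 699.8 ± 34.0 and 722 ± 19.1 FPKM, and the core beta sum 727 ± 40.0 and 766 ± 22.3, both with overlapping groups. The immune beta sum went from 328 ± 28.6 to 271 ± 15.1 FPKM and that of Psme1 and Psme2 from 336 ± 22.7 to 304 ± 17.4. The mean level of a base or lid gene over that of a constitutive core gene was 0.533, 0.548 and 0.499 for Epor-eGFP- against 0.585, 0.607 and 0.590 for Epor-eGFP+. Among genes of the symbol rule, core transcripts were thus the more abundant in all libraries, and the gap was narrower in each Epor-eGFP+ library. Shfm1, which went the other way from most base and lid genes, is not in this ratio, and whether the gap narrows with it is not shown. The summed level of Psme1 and Psme2 over the mean of the 6 ATPase genes was 6.21 ± 0.518 in Epor-eGFP- and 4.62 ± 0.416 in Epor-eGFP+. All 48 proteasome genes together summed to 3202 ± 137 FPKM in Epor-eGFP- and 3380 ± 41.5 in Epor-eGFP+, with overlapping groups. They made up 0.623% ± 0.0283 of total FPKM in Epor-eGFP- and 0.706% ± 0.0352 in Epor-eGFP+. Total FPKM itself was lower in Epor-eGFP+ (a mean of 479184 against 513773), which raises that share. These sums are descriptions and were not tested.

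**Figure D4:**
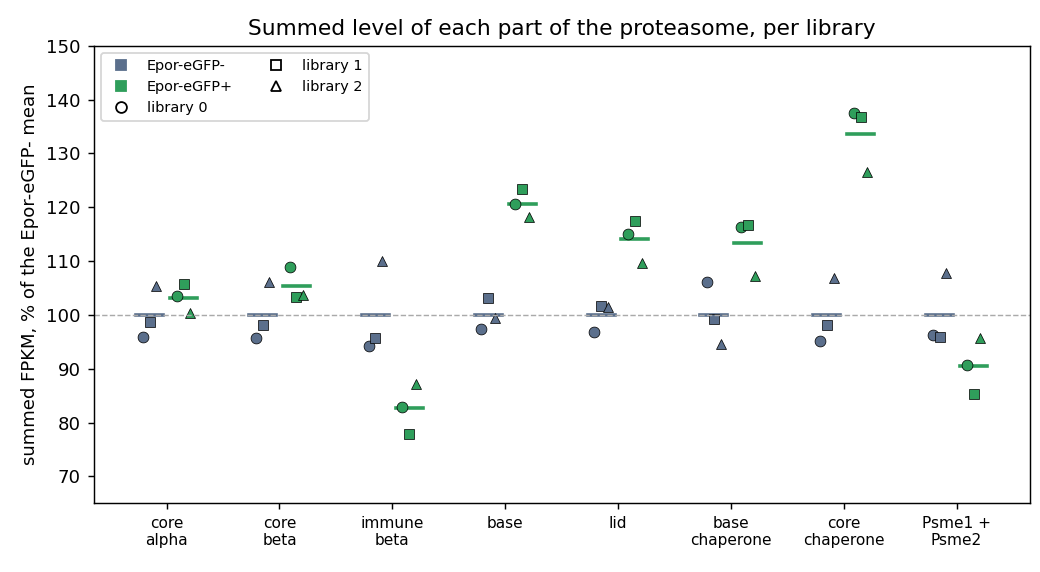
Summed FPKM of each part of the proteasome as a percentage of its Epor-eGFP- mean (y axis, not from 0), with a point for each library and a line for the mean of 3 libraries. The mean of the immune beta sum differed by −17.3% and those of the base, lid and core chaperone sums by 20.7%, 14.1% and 33.6%, without overlap between groups. Only genes of the symbol rule are summed, so the lid sum leaves out the lid subunit gene Shfm1, which fell.

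Across the 48 tested genes, Psmc3ip included, the log2 fold change was higher in genes of lower level, with a Spearman correlation of −0.48 with mean FPKM, against −0.12 over all 10964 tested genes. Of the 18 genes with a mean under 50 FPKM 12 rose, and of the 30 at or above it 11 rose. The genes share libraries and partly share a subgroup, so the correlation is a description. With exon length the correlation was −0.05. Epor-eGFP- library 2 was the highest of its group for 25 of the 48 genes and Epor-eGFP- library 0 the lowest for 27, while in Epor-eGFP+ library 2 was the lowest for 27.

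Most genes listed for control of the immunoproteasome were lower, in a list that does not separate activators from inhibitors. Of 13 genes of interferon signalling and immunoproteasome control, 10 fell, none rose and 3 had no call, and all 13 had log2 fold changes below 0, as they did in each alternative except quantile normalization (12 of 13) and, with 12 genes tested, the stricter filter (12 of 12). Their median was −0.61, against −0.01 over all tested genes, of which 26.3% fell. The number that fell ran from 8 to 12 over 15 alternatives. Irf1, a transcription factor that interferon gamma induces and that drives Psmb8, Psmb9 and Psmb10, was at 53.0, 47.0 and 67.1 FPKM for Epor-eGFP- against 34.6, 32.1 and 41.2 for Epor-eGFP+ (−0.61, SE 0.15, adjusted p = 0.0146). Without Epor-eGFP+ library 0 its adjusted p was 0.0532. Irf9, a partner in the factor that type I interferon activates, fell by 0.87 on the log2 scale. Irf2 fell by 0.83 and Ifngr2, a chain of the interferon gamma receptor, fell by 0.78. Nlrc5, the transactivator of MHC class I genes, fell from 7.66 ± 0.811 to 5.30 ± 0.342 FPKM (−0.46, SE 0.10, adjusted p = 0.00824). Epor-eGFP+ library 2 had the highest Psmb8 to Psmb5 ratio and the highest Irf1 and Irf9 levels of its group. It was also the highest of its group in summed macrophage (7691 FPKM), erythroid (2057), eosinophil (15969) and B lineage (305) markers. In summed neutrophil (20684), monocyte (1642) and T and NK (208) markers it was the lowest. The erythroid rank rests on globin genes, and Klf1 (23.8, 18.2 and 15.9 FPKM) and Car1 (194, 147 and 129) were lowest in that library. The eosinophil rank rests on Prg2, which was listed at 0 in Epor-eGFP+ library 0. Between the groups, the macrophage sum was higher and the ratio lower in Epor-eGFP+ libraries. A link between these levels was not tested.

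Among 14 genes of class I peptide supply 4 rose, 6 fell and 4 had no call (median −0.17). Over all tested genes 22.7% rose and 26.3% fell. The number of the 14 that fell ran from 3 to 6 over 15 alternatives, while 4 rose in each. It was 3 without Epor-eGFP- library 0, without Epor-eGFP+ library 0 and on rescaling to a common total. Tap1 and Tap2, the peptide transporter genes beside Psmb8 and Psmb9, fell by 0.60 (SE 0.07, adjusted p = 0.00126) and 0.33 (SE 0.09, adjusted p = 0.0267) on the log2 scale, as did Lnpep, an aminopeptidase of cross-presentation, by 0.64. Calr, a chaperone of the endoplasmic reticulum that loads class I among many other proteins, rose from 379 ± 93.0 to 934 ± 42.1 FPKM (1.32, SE 0.17), and Thop1, a peptidase that destroys peptides in the cytosol, rose by 1.22 (SE 0.19). Tap2 lost its call under all 3 scalings and without Epor-eGFP- library 0, Epor-eGFP+ library 1 or Epor-eGFP+ library 2.

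**Figure D5:**
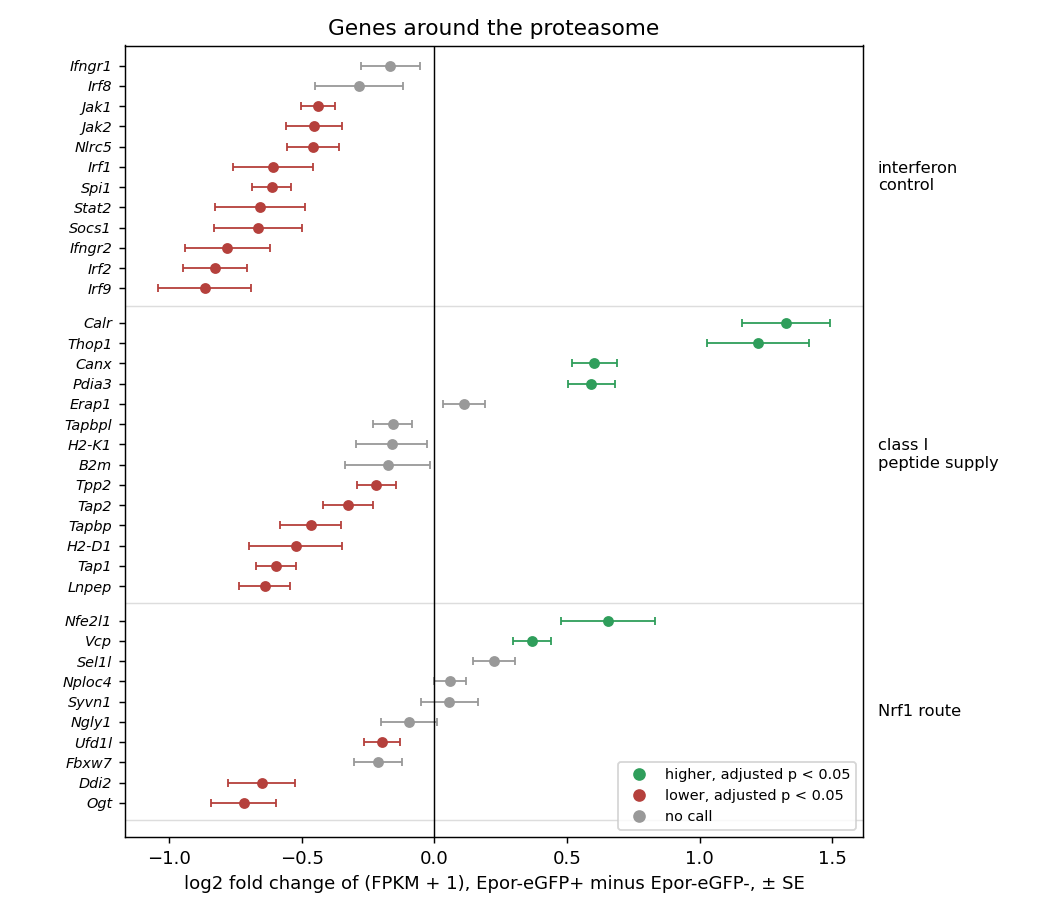
Log2 fold change with SE (x axis, log2 of FPKM + 1, Epor-eGFP+ minus Epor-eGFP-) of 12 of the 13 genes of interferon control, 14 of class I peptide supply and 10 of the Nrf1 route (y axis). Green points passed upward, red points downward and grey points did not pass, and the 12 genes of interferon control lie to the left of 0 (all but Ifngr1 under quantile normalization too).

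Of 17 genes for partners of the proteasome outside the symbol rule, 6 rose, 2 fell and 9 had no call (median 0.14). Among all tested genes 22.7% rose and 26.3% fell. Over 15 alternatives 4 to 9 of the 17 partners rose, and 1 or 2 fell. Usp14, a deubiquitinase bound to the base, was at 9.97, 11.8 and 9.89 FPKM for Epor-eGFP- against 18.1, 19.5 and 17.2 for Epor-eGFP+ (0.74, SE 0.09, adjusted p = 0.00130). Ubqln4, which shuttles ubiquitinated proteins, rose by 0.61, and Nub1, an interferon-induced protein that brings NEDD8 conjugates to the proteasome, fell by 0.53 on the log2 scale. Shfm1, a lid subunit gene outside the symbol rule, also fell (−0.35, SE 0.09, adjusted p = 0.0155). Its adjusted p ran from 0.0150 to 0.133 over 15 alternatives. Adrm1, the ubiquitin receptor Rpn13, and Pomp, the maturation factor of new cores, had no call (0.11 and −0.04). Of 10 genes of the route that makes active Nrf1, the factor that raises proteasome genes together, 2 rose, 3 fell and 5 had no call. Those shares were close to the shares of all tested genes. Leaving out any one Epor-eGFP- library left 1 gene of the route that rose. Nfe2l1, which encodes Nrf1, rose from 28.6, 27.8 and 27.4 FPKM to 44.2, 34.1 and 58.6 (0.65, SE 0.18, adjusted p = 0.0213), a call lost without any one Epor-eGFP- library and without Epor-eGFP+ library 0 (adjusted p 0.0529 to 0.0622). Ddi2, the protease that cleaves Nrf1 into its active form, fell by 0.65, and Ogt, a glycosyltransferase that modifies many proteins including the Nrf1 pathway, by 0.72 on the log2 scale. The ubiquitin genes and the enzymes that charge ubiquitin had no call, 6 of 6, with log2 fold changes of −0.13 to 0.03.

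Marker genes of several cell types moved between the groups beside the proteasome genes, where 22.7% of all tested genes rose and 26.3% fell. All 9 monocyte markers fell, and their summed FPKM was 4285 to 5322 in Epor-eGFP- libraries and 1642 to 2098 in Epor-eGFP+ libraries. Of 15 macrophage markers 11 rose and none fell (656 to 903 against 2348 to 7691), and of 16 erythroid markers 9 rose and none fell (89.1 to 819.8 against 595 to 2057). Of 14 neutrophil markers 4 rose (Mpo, Elane, Prtn3 and Ctsg) and 10 fell (26059 to 40388 against 20684 to 26450). The mean of Mpo was 795 FPKM in Epor-eGFP- and 3381 in Epor-eGFP+. That of Ngp, among those that fell, was 6743 and 2174, so the summed level hides opposite changes. Of 9 eosinophil markers 1 rose and 5 fell (14953 to 24512 against 8059 to 15969). The low end of the latter range is Epor-eGFP+ library 0, where Prg2 was listed at 0, against 10348 and 11088 FPKM in Epor-eGFP+ libraries 1 and 2. Of 6 tested T and NK markers 4 fell (Cd2, Il2rb, Klrb1c and Ncr1) and 1 rose, Nkg7, whose mean of 66.3 FPKM in Epor-eGFP- and 227 in Epor-eGFP+ makes up most of the summed level (67.6 to 103 against 208 to 264). Of 6 tested dendritic markers 2 rose and 1 fell (48.8 to 83.2 against 56.6 to 86.6), and of 9 B lineage markers 3 rose and none fell (131 to 388 against 240.0 to 305). Of the markers in the table only Prg2 was listed at 0 in a library. The part of these cells in the changes of the proteasome genes was not tested.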

How the data were processed

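The authors deposited a single table of FPKM values per gene for 6 libraries. Per the submitters' processing notes, Cufflinks 2.2.1, TopHat2 2.1.0, Trimmomatic 0.35, bcl2fastq 2.19.1.403 and the build mm10 were used, with roles, annotation and scaling not given in the sources used here. Libraries were made with a TruSeq RNA kit, per the labels' protocols. FPKM holds no counts, so the depth and its precision are unknown. Columns are numbered 0 to 2 within a group but samples 1 to 3 in the labels, so columns were assigned to groups only, and libraries go by their column number.

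Of all genes, the 10964 whose mean reached 1 FPKM were tested with limma 3.58.1 in R 4.3.3 on log2(FPKM + 1), with no term but the group, eBayes moderation with a mean-variance trend, two-sided tests and Benjamini-Hochberg adjustment over all tested genes (threshold 0.05). Fold changes are on that log2 scale; percentages are of mean FPKM. Ratios within a library were compared by exact permutation in scipy 1.17.1. Same-numbered libraries deviated together (correlations 0.25, 0.38 and 0.35), so a fit with the number as a replicate block was added, and is given where it changes the call of a gene of the symbol rule. In a test on simulated data (200 of 10964 genes altered), 7 of 125 calls were false. Recovery was 84.0% for log2 changes of 1 but 48.0% for 0.5 and 6.00% for 0.3. In the real data 5372 genes were called, and the median spread of the proteasome genes was below that of all tested genes. These rates therefore do not carry over to the proteasome genes, and how often changes of their size were missed is unknown. Gene positions and exon lengths are from GENCODE M21 (GRCm38).

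Genes with values in the text are the 6 catalytic beta genes, Psme1, Psme2, the up to 3 called genes of largest change per direction and part (or the 2 most abundant where none was called), the most and least abundant gene, Psmc3ip, 10 fixed genes outside the proteasome and the up to 3 called genes of largest change per other list; others were named after their values were seen, and 1 of the fixed genes is not reported here. The genes and lists were chosen with earlier results of these data known. Alternatives were the filter, the pseudocount, 3 scalings, no trend, the block, leaving out each library and leaving out both libraries numbered 2.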

Additional observations from a re-analysis of the deposited data

How the results depend on the processing

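The count of the 48 tested genes that rose (23, Psmc3ip included) ran from 14 to 21 when a library was left out and from 19 to 27 under the 9 other alternatives. Without Psmc3ip, 22 rose, with 14 to 20 when a library was left out. The 4 that fell became 1 on rescaling to a common total or on quantile normalization, 2 on rescaling to a common upper quartile and 2 without both libraries numbered 2, and ran from 1 to 3 when a library was left out. Psme2b fell in all 15 alternatives. In the fit with a replicate block for library number, 24 rose and 6 fell, and Psmb10, Psme1, Psmd5 and Psmd14 gained a call while Psmf1 lost its own; no other call of these genes changed. Under the block 7 partners (6 without it) and 3 genes of the Nrf1 route (2) rose and 11 of interferon control (10) fell. The differences in log2 ratio kept their direction in every alternative tried, from −0.63 to −0.48 for Psmb8 over Psmb5, −0.36 to −0.31 for Psmb9 over Psmb6 and −0.49 to −0.33 for Psmb10 over Psmb7, and an exact permutation of signs within the block of 3 numbers gave p = 0.25 for each, the smallest possible.

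Among the genes given with values, signs turned only where no call was made; of the other proteasome genes, the uncalled Psma1, Psma2, Psmb3, Psmd10 and Psmd13 turned under a scaling and the uncalled Psmb4 and Psmg4 when a library was left out. Rescaled to a common total, Psme2 was at 0.013 and Pomp at 0.058. By the upper quartile Pomp was at 0.019. With quantile normalization Psme1 was at 0.031, Psme2 at 0.041 and Pomp at 0.081. When a library was left out, Pomp ran from −0.122 to 0.071 (above 0 without Epor-eGFP- library 2 or Epor-eGFP+ library 1) and Adgre1 from −0.069 to 0.451 (below 0 without Epor-eGFP+ library 2). Without both libraries numbered 2 Adgre1 was at −0.051. All tested genes gave 5372 calls (46.3% higher), and on rescaling to a common total 59.5% of calls were higher. The cause of these shifts was not tested.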
